A study of Mus musculus with 6 samples.

Results

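Genes of extracellular matrix turnover were examined in cells sorted as natural killer (NK) cells from fibrotic mouse liver, 8 of the 57180 genes in the deposited count table, chosen by gene symbol. They are the matrix metalloproteinases (MMPs) Mmp12, Mmp13, Mmp14 and Mmp19, the tissue inhibitors Timp1 and Timp2, and the ADAM family genes Adam8 and Adamdec1. The RNA came from CD3- NK1.1+ cells sorted into CD36+ NK and CD36- NK fractions, with 3 libraries per fraction that the series describes as biological triplicates. All mice were male wild-type C57BL/6J, 6 to 8 weeks of age, and all had received carbon tetrachloride (CCl4) intraperitoneally, 2.5 ml/kg of a 20% dilution in olive oil, 2 injections each week over 4 weeks, with harvest 48 h after the last one. No library from untreated mice was part of the comparison, and the sources used here do not say whether animals were pooled for a sort.

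MMPs are zinc-dependent endopeptidases that are made as inactive proenzymes and cut collagens, elastin and other matrix proteins once their propeptide is removed. TIMPs bind the active site of MMPs and block it, so matrix turnover in fibrosis depends on both sides. ADAMs carry a related catalytic domain, and several of them release the outer parts of membrane proteins from the cell surface. In fibrotic liver, macrophages are a known source of MMPs that degrade scar matrix, and activated hepatic stellate cells are a known source of TIMP1.

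The comparison asked how the RNA of these genes differed between CD36+ NK and CD36- NK. Libraries held 10292480 to 13787189 counts, and 14761 genes passed the filter on low counts. Fold changes are given on the log2 scale as CD36+ NK over CD36- NK (log2FC) with their standard error (SE). Levels are given as CPM, the count scaled to library size by TMM, unless FPKM (fragments scaled by gene length and library size) is named. A differentially expressed gene (DEG) had a Benjamini-Hochberg adjusted p below 0.05 over all tested genes and a fold change above 2 in edgeR's quasi-likelihood test. Cd36, the gene of the sorted marker, ranged from 110 to 263 CPM in CD36+ NK and from 14.3 to 31.7 CPM in CD36- NK, in the direction of the labels. The NK marker list (10 genes, none at 0) summed to 866 to 1045 CPM in CD36+ NK and 4663 to 5957 CPM in CD36- NK, and all 10 genes were lower DEGs. Its genes of highest level, Gzma, Nkg7 and Prf1, had log2FC values of -2.57, -2.42 and -2.51. The label of CD36+ NK therefore stands against its defining markers, which were present but low, and CD36+ NK is used here as the name of the sorted fraction. The macrophage and Kupffer cell list (10 genes) summed to 2251 to 5584 CPM in CD36+ NK and 364 to 1366 CPM in CD36- NK. All 8 of its tested genes had a fold change above 1 and 3 were DEGs (median log2FC 2.90). Its genes of highest level, Csf1r, C1qb and C1qa, had log2FC values of 1.89, 2.87 and 2.91. Within one bulk library, fewer cells of a type and less RNA per cell cannot be told apart.

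Of the 8 genes, 1 was a DEG, Mmp14, which was higher in CD36+ NK. DEGs made up 5.96% of all tested genes, and 2.98% were DEGs higher in CD36+ NK. Timp1 did not pass the filter on low counts and was not tested. The log2FC values of all 7 tested genes were above 0, as those of 51.9% of all tested genes were, from 0.26 to 3.0 with a median of 1.51 against 0.01 over all tested genes. A gene could pass the filter through the fraction in which it was high, so this median only describes the 7 genes. In 5 of the 7, and in Timp1, each CD36+ NK library lay above each CD36- NK library, as was the case for 17.0% of all tested genes (32.8% when both directions are counted). Mmp19 and Adam8 overlapped between the fractions.

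**Figure D1:**
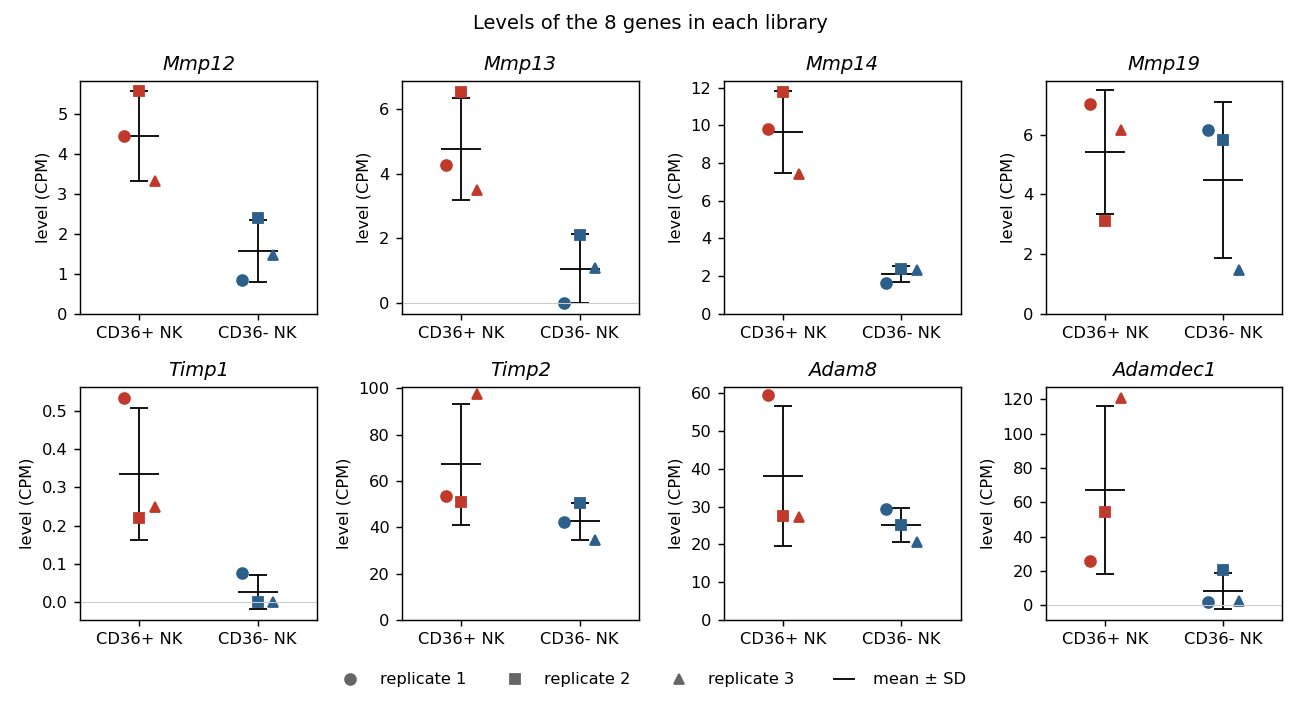
Level of each gene in CPM in the 3 CD36+ NK and 3 CD36- NK libraries, with marker shapes for the replicate numbers and bars for the mean ± SD; each panel has its own scale. Mmp14 separates most cleanly, with 7.40 to 11.8 CPM against 1.61 to 2.39 CPM, while Mmp19 and Adam8 overlap between the fractions.

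Mmp14 encodes MT1-MMP, a membrane-anchored collagenase that activates pro-MMP2 on the cell surface with TIMP2 as a bridging partner. The gene (ENSMUSG00000000957) lies on the plus strand of chromosome 14 from 54669069 to 54682821 (table coordinates, build not named). It had 110, 160 and 89 counts in CD36+ NK replicates 1 to 3, and 21, 27 and 24 counts in CD36- NK replicates 1 to 3. These were 9.79, 11.8 and 7.40 CPM in CD36+ NK and 1.61, 2.39 and 2.34 CPM in CD36- NK. The lowest CD36+ NK library was well above the highest CD36- NK library, and the CD36- NK libraries lay close together. The means were 9.65 ± 2.19 CPM (SD, n = 3) and 2.12 ± 0.434 CPM, a log2FC of 2.19 (SE 0.266, edgeR adjusted p = 0.00483), or 4.57-fold. Leaving out any 1 library gave log2FC values from 2.01 to 2.35 and edgeR adjusted p-values from 0.0103 to 0.0256. Without both replicate 1 libraries, whose library names have another form than the rest, the log2FC was 2.01 and the edgeR adjusted p 0.0511, just past the threshold.

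Mmp12 and Mmp13 are neighbours in a cluster of 10 MMP genes on chromosome 9. Mmp12 (ENSMUSG00000049723, plus strand, 7344381 to 7369499) encodes macrophage elastase, which cuts elastin. Mmp13 (ENSMUSG00000050578, plus strand, 7272514 to 7283331) encodes collagenase 3, the main interstitial collagenase of rodents. Between the end of Mmp13 and the start of Mmp12 lie 61049 bases. Of the 10 cluster genes only Mmp12, Mmp13, Mmp8 and Mmp27 had enough counts to be tested, and Mmp1a, Mmp1b and Mmp20 had no count in any library.

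Mmp12 was a low-count gene, reaching 50, 76 and 40 counts in CD36+ NK, against 11, 27 and 15 in CD36- NK. Its CPM was 4.45, 5.59 and 3.33 in CD36+ NK and 0.846, 2.39 and 1.46 in CD36- NK, without overlap. For Mmp12 the log2FC was 1.51 (SE 0.402), and the edgeR adjusted p of 0.0572 missed the threshold. Mmp12 passed it with edgeR's exact test (adjusted p = 0.00753), with DESeq2 (adjusted p = 0.0156), with a filter of at least 10 counts in every library (edgeR adjusted p = 0.0479), and without CD36- NK replicate 2 (log2FC 1.96, edgeR adjusted p = 0.0305). Over all alternatives the adjusted p ran up to 0.185.

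Mmp13 was also low, with 48, 89 and 42 counts in CD36+ NK and 0, 24 and 11 counts in CD36- NK. The corresponding levels were 4.27, 6.55 and 3.49 CPM, and 0, 2.12 and 1.07 CPM. The library at 0, CD36- NK replicate 1, could hold up to 3 counts by counting error alone. The log2FC of 2.19 equalled that of Mmp14, but its SE was 0.838 and its edgeR adjusted p 0.150. Without CD36- NK replicate 2 the log2FC was 3.24 and without CD36- NK replicate 1 it was 1.55, with edgeR adjusted p-values of 0.0870 and 0.115. The standard deviation of log2 CPM within the fractions was 1.43 for Mmp13 and 0.313 for Mmp14, against a median of 0.205 over all tested genes.

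The upstream sequences of these genes are shown because AP-1 sites are a known feature of MMP promoters. RefSeq promoter windows of build GRCm38.p6 matched 6 of the 8 genes, in 7 windows, and the 250 bases before the annotated start were searched for TGANTCA, the AP-1 motif, which reads the same on both strands. Of the 6 genes, Mmp12 and Mmp13 held the motif, and 6.75% of 32851 windows of that length did. Capitals mark the motif, which begins 35 bases before the start in Mmp13 and 44 bases before the second annotated start in Mmp12. The window of Mmp14 and that of the first start of Mmp12 held no match. The match is a description of the letters in these windows and not evidence of binding. All windows below are on the plus strand, 5′ to 3′.
Mmp13, chr9:7272264-7272513: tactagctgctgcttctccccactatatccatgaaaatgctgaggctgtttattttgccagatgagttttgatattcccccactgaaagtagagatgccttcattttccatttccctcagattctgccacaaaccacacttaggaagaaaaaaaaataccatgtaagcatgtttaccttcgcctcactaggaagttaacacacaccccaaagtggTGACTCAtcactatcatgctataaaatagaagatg
Mmp12, first start, chr9:7344147-7344396: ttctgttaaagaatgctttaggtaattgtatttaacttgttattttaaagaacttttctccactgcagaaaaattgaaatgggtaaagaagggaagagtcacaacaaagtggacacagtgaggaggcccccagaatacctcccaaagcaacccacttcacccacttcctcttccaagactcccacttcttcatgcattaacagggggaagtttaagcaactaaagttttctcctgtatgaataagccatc
Mmp12, second start, chr9:7347124-7347373: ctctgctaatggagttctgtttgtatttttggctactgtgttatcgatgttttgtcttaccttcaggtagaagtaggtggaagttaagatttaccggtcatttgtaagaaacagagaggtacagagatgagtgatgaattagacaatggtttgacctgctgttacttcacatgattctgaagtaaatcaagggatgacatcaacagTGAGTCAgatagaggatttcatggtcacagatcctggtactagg
Mmp14, chr14:54431348-54431597: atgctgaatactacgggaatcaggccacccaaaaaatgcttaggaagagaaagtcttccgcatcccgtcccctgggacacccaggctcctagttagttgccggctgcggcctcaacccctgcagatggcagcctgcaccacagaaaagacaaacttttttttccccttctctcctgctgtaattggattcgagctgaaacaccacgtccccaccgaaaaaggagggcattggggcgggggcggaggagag

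Mmp19 encodes a secreted MMP that cuts basement membrane proteins. The gene (ENSMUSG00000025355) lies on the plus strand of chromosome 10 from 128626779 to 128636693. It had 79, 42 and 74 counts in CD36+ NK and 80, 66 and 15 counts in CD36- NK. At 7.03, 3.09 and 6.15 CPM against 6.15, 5.84 and 1.46 CPM, the fractions overlapped, and the lowest library was CD36- NK replicate 3. The log2FC was 0.26 (SE 0.532, edgeR adjusted p = 0.813). Without CD36- NK replicate 3 it was -0.15, so no direction can be given. Mmp19 shares 789 bases with Tmem198b on the opposite strand, which had 858 counts over the 6 libraries against 356 for Mmp19, and strand use in the counting is not given in the sources used here.

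Timp2 encodes an inhibitor of most MMPs that is also needed for the activation of pro-MMP2 by MT1-MMP. The gene (ENSMUSG00000017466) is on chromosome 11, minus strand, 118191887 to 118246566. It had 601, 691 and 1171 counts in CD36+ NK and 552, 572 and 354 counts in CD36- NK. Its CPM was 53.5, 50.8 and 97.4 in CD36+ NK and 42.4, 50.6 and 34.6 in CD36- NK. The fractions did not overlap, but CD36+ NK replicate 2 lay above CD36- NK replicate 2 by only a fraction of 1 CPM. The log2FC was 0.66 (SE 0.273, edgeR adjusted p = 0.179), and 0.30 without CD36+ NK replicate 3 (edgeR adjusted p = 0.416).

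Timp1, which encodes the inhibitor most used as a marker of fibrogenesis, was near the detection limit. The gene (ENSMUSG00000001131) lies on the plus strand of the X chromosome from 20736405 to 20740974. It had 6, 3 and 3 counts in CD36+ NK and 1, 0 and 0 counts in CD36- NK. Per total count the ratio of the pooled counts, 12 against 1, was 10.9, with an exact 95% interval from 1.62 to 467 that covers counting error only. Fitted without the filter on low counts, Timp1 had a log2FC of 3.13 (edgeR adjusted p = 0.155). An exact permutation test of the CPM gave p = 0.1 (two-sided), the smallest that 3 libraries against 3 allow. The 4570 bases of Timp1 lie wholly within Syn1 on the opposite strand, which had 87 counts over the 6 libraries. Lrat and Rgs5, markers of hepatic stellate cells and pericytes, had no count in any library. The stellate cell list of 8 genes summed to 3.46 to 6.57 CPM in CD36+ NK and 0.977 to 2.15 CPM in CD36- NK. Of its 2 tested genes, Pdgfrb was a higher DEG (log2FC 2.5) and Acta2 had a log2FC of -0.03.

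Per gene length Timp2 was at a higher level than Mmp12, Mmp13, Mmp14 and Mmp19. Timp2 was at 9.91 to 18.4 FPKM in CD36+ NK and 6.80 to 10.3 FPKM in CD36- NK, and no library held as much as 3 FPKM of any of the 4 MMPs. The highest MMP value was that of Mmp13, 2.41 FPKM in CD36+ NK replicate 2. Mmp9, which is not among the 4, was at 4.07 to 52.3 FPKM in CD36+ NK and 7.44 to 23.8 FPKM in CD36- NK, a range that overlapped with that of Timp2. The ratio of Mmp14 to Timp2 in FPKM was 0.115, 0.145 and 0.0476 in CD36+ NK and 0.0238, 0.0296 and 0.0425 in CD36- NK. The fractions did not overlap in this ratio, although CD36+ NK replicate 3 came close to CD36- NK replicate 3. For these 4 MMPs, without Mmp9, summed over Timp1 plus Timp2 the ratio was 0.428, 0.5 and 0.196 in CD36+ NK and 0.183, 0.252 and 0.167 in CD36- NK, with overlap. In mean FPKM over CD36+ NK the order was Adamdec1 (26.7 ± 18.8, SD, n = 3), Timp2 (13 ± 4.69), Adam8 (5.90 ± 3.04), Mmp13 (1.76 ± 0.596), Mmp14 (1.18 ± 0.283), Mmp19 (1.09 ± 0.427), Mmp12 (0.442 ± 0.117) and Timp1 (0.240 ± 0.13). The 3 libraries of Adamdec1 overlapped with those of Timp2, those of Mmp13, Mmp14 and Mmp19 overlapped each with the next, and those of Mmp12 with Timp1, while Timp2, Adam8, Mmp13 and then Mmp19 and Mmp12 were separated. In CD36- NK the order began with Timp2 (8.52 ± 1.75), Adam8 (3.96 ± 0.733) and Adamdec1 (3.53 ± 4.50).

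**Figure D2:**
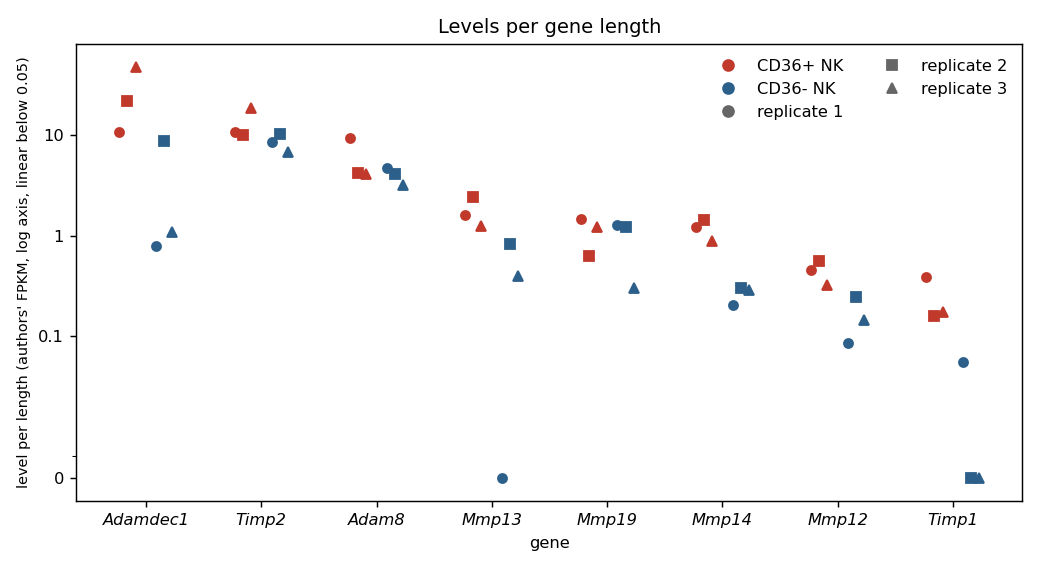
Level per gene length of each gene in the 6 libraries, as FPKM deposited by the authors on a log axis that is linear below 0.05, with genes ordered by the mean of both fractions. Timp2 stays between 6.80 and 18.4 FPKM in all 6 libraries, and Adamdec1 runs from 0.795 to 47.4 FPKM.

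Adamdec1 had the largest log2FC and the widest spread of the 7 tested genes. It encodes decysin, a secreted ADAM-like protein with a shortened domain structure, known from macrophages and mature dendritic cells. The gene (ENSMUSG00000022057) is on chromosome 14, minus strand, 68800829 to 68819544. It had 290, 739 and 1455 counts in CD36+ NK and 25, 234 and 27 counts in CD36- NK. At 25.8, 54.4 and 121 CPM against 1.92, 20.7 and 2.64 CPM, the fractions did not overlap. The highest CD36- NK library, replicate 2, stood far above the other 2 and close to the lowest CD36+ NK library. At the fold level Adamdec1 had a log2FC of 3.0 (SE 0.946, edgeR adjusted p = 0.0919), and the standard deviation of log2 CPM within the fractions was 1.5, wider than in 99.5% of all tested genes. Without CD36- NK replicate 2 the log2FC was 4.88 with an edgeR adjusted p of 0.0147, and without CD36+ NK replicate 3 it was 2.26 with an adjusted p of 0.259. It passed the threshold with edgeR's exact test (adjusted p = 0.019) and with the form of the library name as a block (log2FC 3.11, edgeR adjusted p = 0.0479). With DESeq2 it did not (adjusted p = 0.0565).

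The macrophage list and Adamdec1 were highest in the same library of each fraction. The list summed to 2251, 3500 and 5584 CPM in CD36+ NK replicates 1 to 3 and to 553, 1366 and 364 CPM in CD36- NK replicates 1 to 3. Both peaked in CD36+ NK replicate 3 and, within CD36- NK, in replicate 2, but the lowest CD36- NK library was replicate 1 for Adamdec1 and replicate 3 for the list. Per 1000 CPM of the list, Adamdec1 was at 11.5, 15.5 and 21.7 CPM in CD36+ NK and at 3.47, 15.1 and 7.24 CPM in CD36- NK, so the fractions overlapped on that scale. Mmp14 was at 4.35, 3.36 and 1.33 CPM per 1000 in CD36+ NK and at 2.92, 1.75 and 6.43 in CD36- NK, with overlap as well, and so were Mmp12, Mmp13 and Timp1. Timp2 was at 23.8, 14.5 and 17.4 CPM per 1000 in CD36+ NK against 76.7, 37.0 and 94.9 in CD36- NK, without overlap and in the opposite order to its CPM. Because the list itself was far higher in CD36+ NK, a gene with a small fold change had to come out lower on this scale, so the order is no result about the gene. By the same arithmetic, a gene with a fold change near that of the list would tend to overlap. An overlap on this scale is therefore no result about Adamdec1, Mmp12, Mmp13 or Mmp14 either. Mmp19 was at 3.12, 0.883 and 1.10 CPM per 1000 in CD36+ NK against 11.1, 4.27 and 4.02 in CD36- NK, also lower without overlap. Adam8, at 26.5, 7.84 and 4.88 against 53.2, 18.4 and 56.3, overlapped. Mmp12, Mmp13 and Mmp14 were each highest in CD36+ NK replicate 2 and lowest of the 3 in replicate 3, unlike the list. The Kupffer cell markers Clec4f and Vsig4 were also highest in CD36+ NK replicate 2, with 624 and 181 counts, against 17 and 10 in replicate 1 and 0 and 6 in replicate 3, whereas the other 8 genes of the list, among them the Kupffer cell genes Timd4, Marco and Cd5l, were highest in replicate 3. Clec4f had no count in any CD36- NK library. Sums of some lists of other cells also differed between the fractions. The conventional dendritic cell list (8 genes, none at 0) summed to 1985 to 2065 CPM in CD36+ NK and to 1758 to 1957 CPM in CD36- NK. Of its genes 6 of 8 had a fold change above 1, with 2 higher DEGs (Xcr1 and Clec9a, log2FC 2.46 and 2.03). Its 1 lower DEG was Itgax (log2FC -1.13, edgeR adjusted p = 0.00969). Each CD36- NK library held 415 to 611 CPM of Itgax, and each CD36+ NK library 197 to 255 CPM. Xcr1 and Clec9a stayed lower there, from 7.28 to 18.5 CPM. H2-Ab1 (log2FC 0.37) was the largest part of the sum in each library, so the sum mainly followed that gene. The B cell list (6 genes, none at 0) summed to 3932 to 4357 CPM and to 2625 to 3021 CPM, with 6 of 6 genes above a fold change of 1 (median log2FC 0.51). The sinusoidal endothelial cell list summed to 212 to 306 CPM in CD36+ NK and to 154 to 169 CPM in CD36- NK. For the monocyte list the sums overlapped, at 4441 to 6078 CPM and 3251 to 6891 CPM, and 3 of 9 genes had a fold change above 1 (median log2FC -0.36). The plasmacytoid dendritic cell list overlapped too, at 666 to 904 CPM and 609 to 899 CPM, and the hepatocyte list reached 1.58 to 10.6 CPM and 0.0884 to 0.692 CPM. The part of RNA from any of these cells in the differences was not tested.

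**Figure D3:**
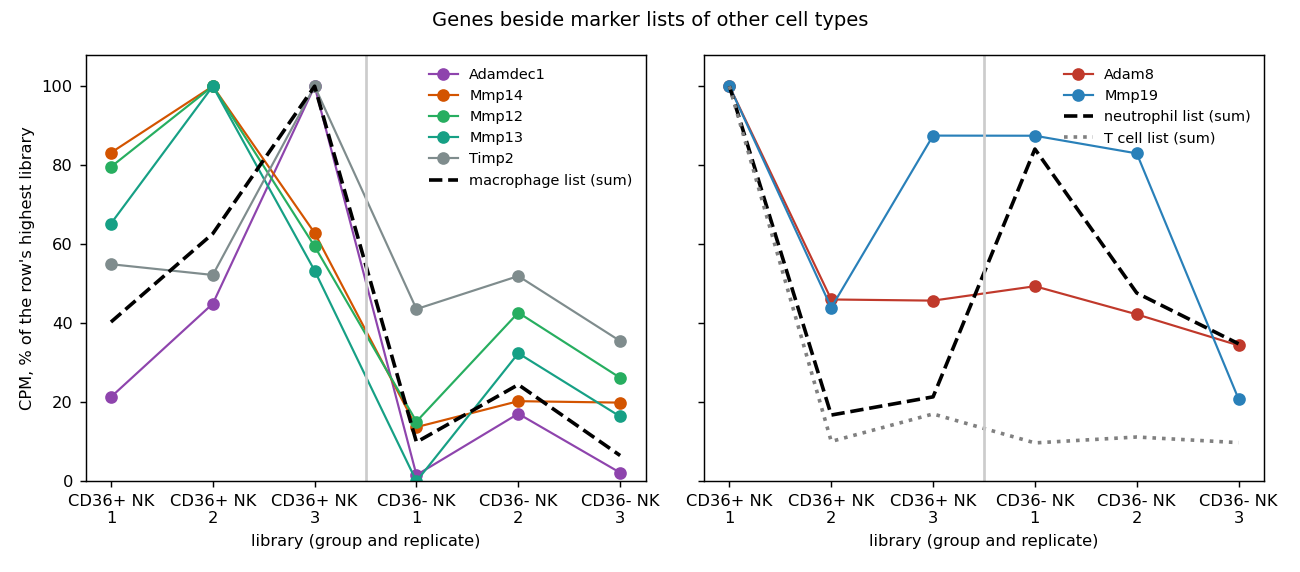
CPM in each library as a percentage of the highest library for Adamdec1, Mmp14, Mmp12, Mmp13 and Timp2 beside the summed macrophage and Kupffer cell list (left), and for Adam8 and Mmp19 beside the neutrophil and T cell lists (right); lines join libraries only to guide the eye. Adamdec1 and the macrophage list peak in CD36+ NK replicate 3, the 3 higher MMPs peak in replicate 2, and Adam8 peaks with the neutrophil and T cell lists in replicate 1.

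Adam8 encodes a leukocyte ADAM that sheds cell surface proteins. The gene (ENSMUSG00000025473) is on chromosome 7, minus strand, 139558845 to 139572475. It had 670, 373 and 328 counts in CD36+ NK and 383, 285 and 210 counts in CD36- NK. Its CPM was 59.6, 27.4 and 27.3 in CD36+ NK and 29.4, 25.2 and 20.5 in CD36- NK. The fractions overlapped, and CD36+ NK replicate 1 stood apart from the other 5 libraries. The log2FC was 0.60 (SE 0.326, edgeR adjusted p = 0.301) and was 0.11 without CD36+ NK replicate 1 (edgeR adjusted p = 0.752). In that library the neutrophil list (10 genes, none at 0) summed to 5603 CPM, against 939 and 1197 CPM in the other CD36+ NK libraries and 1950 to 4712 CPM in CD36- NK. The T cell list (6 genes, none at 0) summed to 260 CPM there and to 25.2 to 44.2 CPM in the other 5 libraries, although the sort gated on CD3- cells. Of the T cell list 6 of 6 genes had a fold change above 1 and 2 were higher DEGs, and of the neutrophil list 4 of 10 had a fold change above 1 (median log2FC -0.30). Per 1000 CPM of the neutrophil list, Adam8 was at 10.6, 29.2 and 22.8 CPM in CD36+ NK and 6.25, 9.44 and 10.5 CPM in CD36- NK, and replicate 1 was then the lowest CD36+ NK library, just above the highest CD36- NK library. The list was lowest in CD36+ NK replicates 2 and 3, which by itself raises their values on this scale. The part of T cells in the level of Adam8 was not tested.

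The genes whose log2 CPM was most alike over the 6 libraries were found among 12990 genes with a mean log2 CPM above 1, by Pearson's r. Because 6 libraries in 2 fractions give many genes a high r, the values are a description. For Adamdec1 the nearest were Gm57137 and Mrc1, which encodes the macrophage mannose receptor (r = 0.9985 and 0.9982). For Mmp14 they were Tmem63b and Gm4610 (0.9963 and 0.9897), for Mmp12 Abcb8 and Kmo (0.994 and 0.9914), and for Mmp13 Pcsk4 and Gm15433 (0.9919 and 0.9886). Timp2 was nearest to Gmpr2 and Dennd1a (0.9918 and 0.9899), Adam8 to Tor1b and Eif2b1 (0.9922 and 0.9883), and Mmp19 to Pycr1 and Pepd (0.9989 and 0.9941).

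**Figure D4:**
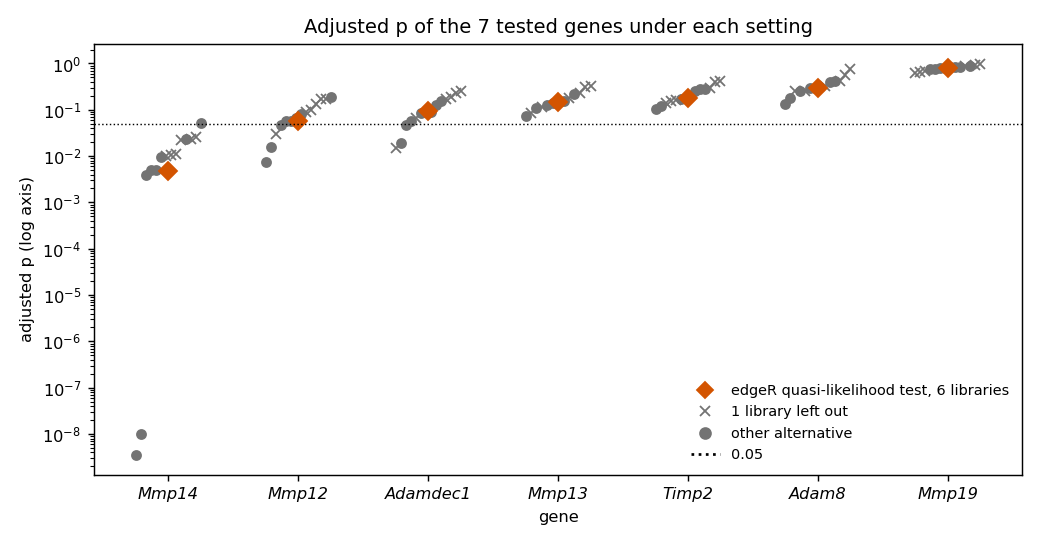
Adjusted p of the 7 tested genes on a log axis, for edgeR's quasi-likelihood test over the 6 libraries (diamonds), with 1 library left out (crosses) and under the other alternatives (circles); the dotted line is at 0.05. Mmp14 lies below the line in all settings but the one without both replicate 1 libraries, Mmp12 and Adamdec1 lie on both sides, and Mmp13, Timp2, Adam8 and Mmp19 stay above it.

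Of the 19 other MMP genes 7 were tested, with a median log2FC of 0.57, 6 of them with a log2FC above 0, and edgeR's quasi-likelihood test called 0, against 5.96% of all tested genes. At an unadjusted p below 0.05 it was 1, Mmp27, which DESeq2 and edgeR's exact test called. Mmp27, in the chromosome 9 cluster, was at 1.07, 2.35 and 2.91 CPM in CD36+ NK and 0.154, 0.707 and 0 CPM in CD36- NK (log2FC 2.83, SE 0.809, edgeR adjusted p = 0.0698). The other MMPs of highest level were Mmp9, gelatinase B, and Mmp8, neutrophil collagenase. Mmp9 was at 204, 24.0 and 16.8 CPM in CD36+ NK and 92.9, 36.5 and 29.5 CPM in CD36- NK, highest in replicate 1 of both fractions as the neutrophil list was within CD36+ NK and CD36- NK, a list that holds both Mmp9 and Mmp8. Mmp9 and Mmp8 had log2FC values of 0.62 and 0.09 (edgeR adjusted p = 0.741 and 0.967). Without CD36+ NK replicate 1 the direction turned, to -1.39 and -1.84 (edgeR adjusted p = 0.148 and 0.0962), and the 2 other CD36+ NK libraries lay below each CD36- NK library. Without both replicate 1 libraries the values were -0.70 and -1.09, and both genes had an unadjusted p below 0.05 (edgeR adjusted p = 0.162 and 0.103). Mmp2, the gelatinase that MT1-MMP activates, had 8, 19 and 2 counts in CD36+ NK and 0 in each CD36- NK library and was not tested.

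A procollagen protease gene and an MMP inhibitor gene outside the 8 fell in CD36+ NK. Adamts14, which encodes a procollagen N-proteinase, was at 85, 96.2 and 86.4 CPM in CD36+ NK and 505, 434 and 700 CPM in CD36- NK. Its log2FC was -2.61 (SE 0.189, edgeR adjusted p = 0.000652), and it was a DEG in 14 of 14 alternatives. Reck, which encodes a membrane-anchored inhibitor of MMPs that include MT1-MMP, was at 6.23, 2.87 and 3.41 CPM in CD36+ NK and 13.2, 11.4 and 21.7 CPM in CD36- NK. It had a log2FC of -1.89 (SE 0.367, edgeR adjusted p = 0.0228) and was a DEG in 9 of 14 alternatives. Adamts10 was at 95.1 to 110 CPM and 167 to 236 CPM, a log2FC of -0.98 (edgeR adjusted p = 0.00789), just short of the fold threshold. The NK list fell by a median of 2.45 on the log2 scale beside these genes, and its part in them was not tested.

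Among the 24 other ADAM genes 12 were tested, 10 of them with a fold change above 1 (51.9% of all tested genes), and Adam23 was the DEG, 1 of 12 against 5.96% of all tested genes. Adam23, which encodes an ADAM without protease activity, was at 14.3, 27.5 and 37.6 CPM in CD36+ NK and 4.84, 8.84 and 6.35 CPM in CD36- NK (log2FC 1.99, SE 0.382, edgeR adjusted p = 0.0219). It was a DEG in 10 of 14 alternatives, and its edgeR adjusted p was 0.0740 without CD36+ NK replicate 2, 0.0663 without CD36+ NK replicate 3, and 0.0829 when either replicate 1 or replicate 3 of CD36- NK was left out. Adam19 was at 119 to 128 CPM and 60 to 65.8 CPM (log2FC 0.95, edgeR adjusted p = 0.00148), short of the fold threshold. Adam10 and Adam17, the widely used sheddases and the ADAM genes of highest level, had log2FC values of 0.08 and 0.37 (edgeR adjusted p = 0.899 and 0.404). Of 10 tested activators and partners, Plau, the urokinase that generates plasmin, was the DEG, again against 5.96% of all tested genes (log2FC 1.02, edgeR adjusted p = 0.0477). Plau was at 11.1, 10.7 and 11.8 CPM in CD36+ NK and 7.69, 4.86 and 4 CPM in CD36- NK, and it was a DEG in 5 of 14 alternatives. Lrp1, an endocytic receptor that clears MMPs and TIMPs, and Cd44, a docking site for MT1-MMP, were the most expressed of this list. They had log2FC values of 1.34 (edgeR adjusted p = 0.0570) and 0.54 (edgeR adjusted p = 0.0431, short of the fold threshold).

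Over the 7 wider lists, which leave out the 8 genes, edgeR called 9 of 47 tested genes (5.96% of all tested genes were DEGs, and 2.98% in each direction), and of these CD36+ NK was higher for 7 and lower for 2. The number was 3 without CD36+ NK replicate 2, 2 without CD36+ NK replicate 3, 3 without CD36- NK replicate 1 and 3 without CD36- NK replicate 3.

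**Figure D5:**
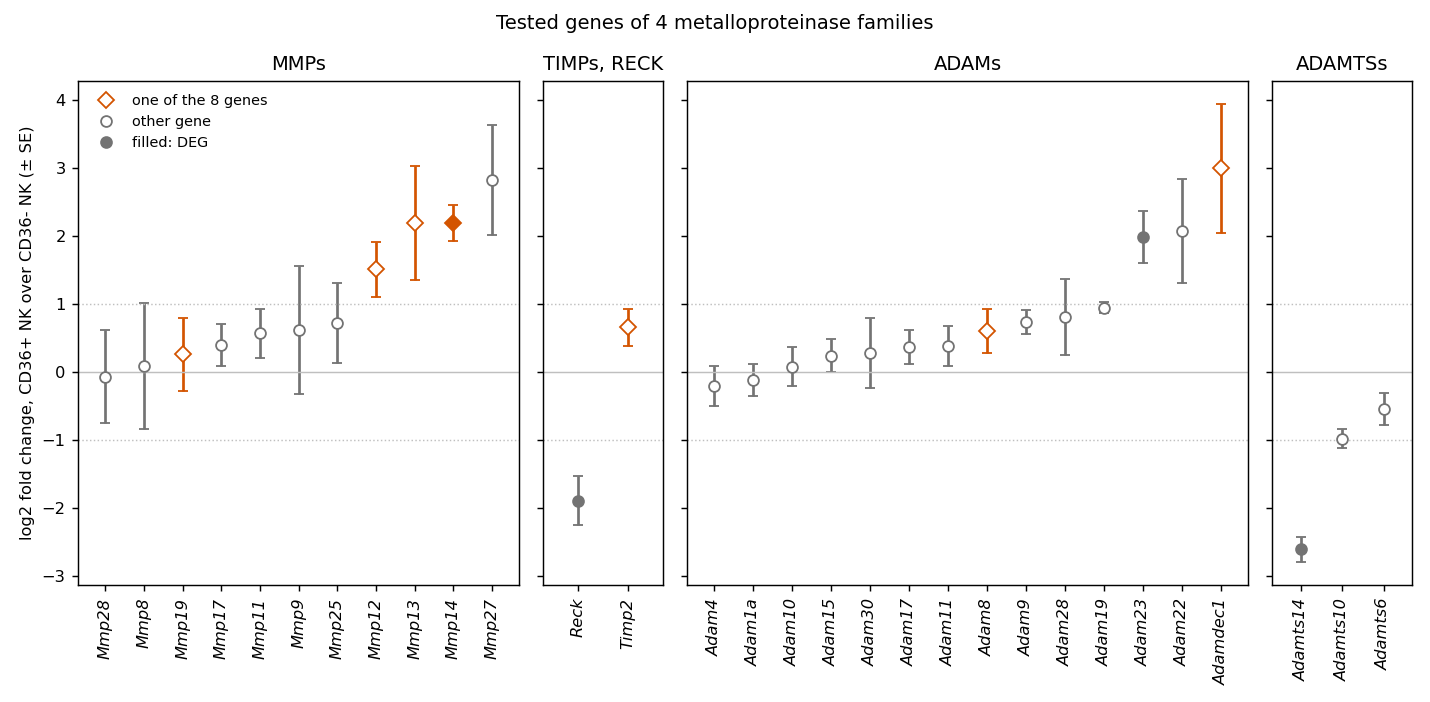
Log2 fold change of CD36+ NK over CD36- NK with its SE for each tested MMP, TIMP or RECK, ADAM and ADAMTS gene, with diamonds for the 8 genes, circles for others, filled symbols for DEGs and dotted lines at a 2-fold change. Mmp14 and Adam23 are the higher DEGs at 2.19 and 1.99, Reck and Adamts14 the lower ones at -1.89 and -2.61, and the SE bars of Mmp13 and Adamdec1 are the widest of the 7 tested genes of the 8.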

How the data were processed

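RNA-seq covered 3 samples per fraction. Reads went through Seqtk, HISAT2 2.0.4 and StringTie in the hands of the authors, and the counts per gene were deposited without normalization. The FPKM values deposited beside them served only for levels per gene length. The authors' processing notes name a rat assembly although the table holds mouse Ensembl genes, so the build behind the table is unclear. Libraries were grouped by sample titles; the library names of the CD36+ NK samples carry a minus sign, and those of the CD36- NK samples are numbered differently from their titles. The lines of 2 genes were rejoined.

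Counts were filtered with filterByExpr (minimum count 10), scaled by TMM and tested with edgeR 4.0.16 in R 4.3.3 without a block; the study's limits were kept (adjusted p under 0.05, more than 2-fold). Each SE was obtained as |log2FC| over the root of its quasi-likelihood F. The biological coefficient of variation, a single value over all tested genes, was 20.3%, with totals of 10292480 to 13787189 counts per library. The precision of each gene rests on its own quasi-likelihood fit and is given by its SE. Alternatives were upper-quartile scaling, DESeq2 1.42.0, edgeR's exact test, other filters, blocks, no fold threshold, and libraries left out. Replicates differed by more than counting noise (ratio of chi-square to its degrees of freedom, 14.8 to 29.1).

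The 8 genes, the 7 wider lists and the marker lists were chosen with earlier results of these data known. Named genes are the 8, Cd36, and the DEGs and the 2 genes of highest level of each wider list. Of the NK and macrophage lists the 3 genes of highest level are named. So are the 2 genes most alike to each tested gene of the 8. Outside this rule, Mmp1a, Mmp1b, Mmp2, Mmp20, Mmp27, Adam19, Tmem198b and Syn1 were named after their values were seen. The same holds for the marker genes Clec4f, Vsig4, Timd4, Marco, Cd5l, Xcr1, Clec9a, Itgax, H2-Ab1, Cd14, Clec4e, Ccr2 and Lyz2. It also holds for Pecam1, Stab2, Clec4g, Lyve1, Kdr, Oit3, Lrat, Rgs5, Pdgfrb, Acta2 and Col1a1. A gene that this rule would name is not reported here.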

Additional observations from a re-analysis of the deposited data

How the results depend on the processing

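The number of DEGs among the 8 genes was 1, and it was 2 with DESeq2, 3 with edgeR's exact test, 2 with at least 10 counts in every library, 2 with the form of the library name as a block, and from 1 to 3 with 1 library left out. Without both replicate 1 libraries, an alternative chosen after seeing the data, edgeR called 0 of the 8 (4 at an unadjusted p below 0.05). All tested genes gave 880 DEGs, from 417 to 1160 with 1 library left out, 433 without both replicate 1 libraries, and 1552 with no fold threshold. The wider lists gave 9 DEGs, from 2 to 12 with 1 library left out, 3 without both replicate 1 libraries, and 18 with no fold threshold. The replicate block gave 560 DEGs over all genes and 5 in the wider lists, and it changed no call among the 8 genes. Same-numbered libraries deviated from their group means with correlations of 0.310, 0.0515 and -0.0837 across genes, so the title numbers were not taken to pair samples; the library names number CD36- NK differently, and a pairing by those was not tested. The log2FC of Mmp19 ran from -0.15 (without CD36- NK replicate 3) to 0.55 with 1 library left out, and the other tested genes of the 8 kept a positive sign in each alternative. The causes were not tested. With at least 10 counts in every library Mmp13 could not be fitted, having 0 counts in 1 library. Timp1, at 13 counts over 6 libraries, could be fitted only without the filter on low counts (log2FC 3.13, edgeR adjusted p = 0.155).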

Other observations

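Slpi, which encodes an inhibitor of leukocyte elastase, was higher in CD36+ NK. It was at 120, 103 and 226 CPM in CD36+ NK and 31.7, 51.1 and 15.3 CPM in CD36- NK, without overlap (log2FC 2.19, SE 0.467, edgeR adjusted p = 0.0306), and it was a DEG in 8 of 14 alternatives. Serpine2, which encodes a serine protease inhibitor, had a log2FC of -0.02 (edgeR adjusted p = 0.964).

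Of 21 matrix genes 9 had enough counts to be tested, and 3 were DEGs, all higher in CD36+ NK, as 2.98% of all tested genes were. Col4a2 and Col4a1 encode chains of basement membrane collagen and share a promoter region head to head. Both were low-count genes, with 216 counts for Col4a2 and 219 for Col4a1 over the 6 libraries. Col4a2 was at 3.29, 6.25 and 5.82 CPM in CD36+ NK and 0.922, 0.619 and 0.488 CPM in CD36- NK (log2FC 2.88, SE 0.378, edgeR adjusted p = 0.00624), and it was a DEG in 13 of 13 alternatives. With at least 10 counts in every library Col4a2 could not be fitted. Col4a1 had a log2FC of 1.38 (edgeR adjusted p = 0.0392) and was a DEG in 8 of 14. Col14a1, a fibril-associated collagen, was at 32.8, 47.4 and 110 CPM in CD36+ NK and 2.46, 15.3 and 2.93 CPM in CD36- NK, the order of libraries that Adamdec1 and the macrophage list also had within CD36+ NK. Its log2FC was 3.20 (SE 0.773, edgeR adjusted p = 0.0433), and it was a DEG in 7 of 14 alternatives. Fn1, fibronectin, was the matrix gene of highest level, with means of 541 ± 157 CPM (CD36+ NK) and 542 ± 201 CPM (CD36- NK; SD, n = 3). Col1a1 had 6, 2 and 11 counts in CD36+ NK and 6, 0 and 3 in CD36- NK.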
